A study of Homo sapiens with 4 samples.

Results

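The 8 genes of the suppressor of cytokine signalling family, SOCS1 to SOCS7 and CISH, were examined in ATAC-seq peak lists of HK1 cells, a human cell line established from a nasopharyngeal carcinoma. ATAC-seq uses a transposase that cuts and tags open DNA, so a peak marks accessible chromatin. The members were all peaks that overlapped the GENCODE gene body or the 10 kb upstream of it (GRCh38). They came to 59 of 250225 peaks, and to 21 of 93211 regions once overlapping peaks of the lists were merged. The series compared wild-type HK1 cells (WT) with HK1 cells in which FLI1, an ETS-family transcription factor gene, had been disrupted by a guide RNA (sgFLI1), each left as a control or treated with interferon-γ (WT-IFN and sgFLI1-IFN). Treatment lasted a day by the study's account. The labels give no dose and do not say whether the knockout cells are 1 clone. The peak lists do not show whether FLI1 itself was lost. Each of the 4 groups held 1 library, so the spread between replicates is unknown, no test was run, and every interval is at the 95% level and covers counting error alone, over tags for pileups and ratios and over peaks for shares.

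SOCS proteins are the feedback brakes of cytokine signalling. Interferons and other cytokines activate JAK kinases, which activate STAT factors, and the STAT factors switch on SOCS genes. SOCS proteins then bind receptors or kinases through an SH2 domain, and through the SOCS box they recruit an elongin and cullin ubiquitin ligase that marks the bound proteins for degradation. SOCS1 and SOCS3 also carry a kinase inhibitory region and block JAK activity directly, and SOCS1 is the main brake on interferon-γ signalling.

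The lists held 59629 to 67470 peaks. The height of a peak is given as its summit pileup, the number of sequenced tags that overlap the summit, which was recovered as a whole number from the deposited fold and −log10 p. The median pileup was 31 tags in WT, 30 in WT-IFN, 27 in sgFLI1 and 26 in sgFLI1-IFN. Background density came to 8.04, 8.84, 6.93 and 6.86 tags per kb in the same order, so the sgFLI1 libraries were the shallower ones. Among the marker genes, a peak lay over the canonical start of 3 of 6 epithelial genes in every list (EPCAM, KRT8 and KRT18, and not CDH1, KRT5 or TP63) and of 0 of 4 lymphoid genes. Such a peak was found at 55.0 to 56.8% of all protein-coding genes, so the epithelial count is near that share. Away from their starts, the lymphoid genes and the 10 kb upstream held 8 peaks in WT, 7 in WT-IFN, 6 in sgFLI1 and 5 in sgFLI1-IFN.

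The start regions of the family were listed as peaks in every library, apart from that of SOCS6 in sgFLI1. A peak overlapped the canonical transcription start of 6 of the 8 genes in all 4 lists, namely SOCS1, SOCS3, CISH, SOCS4, SOCS5 and SOCS7, where the same held for 52.7% of 19962 protein-coding genes. At SOCS2 the peak lay 1.9 kb upstream of the canonical start, among alternative SOCS2 starts and that of the divergent SOCS2-AS1. At SOCS6 the start carried a low peak in 3 lists and none in sgFLI1. The family counted 13 peaks in the WT list, 19 in WT-IFN, 12 in sgFLI1 and 15 in sgFLI1-IFN.

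**Figure D1:**
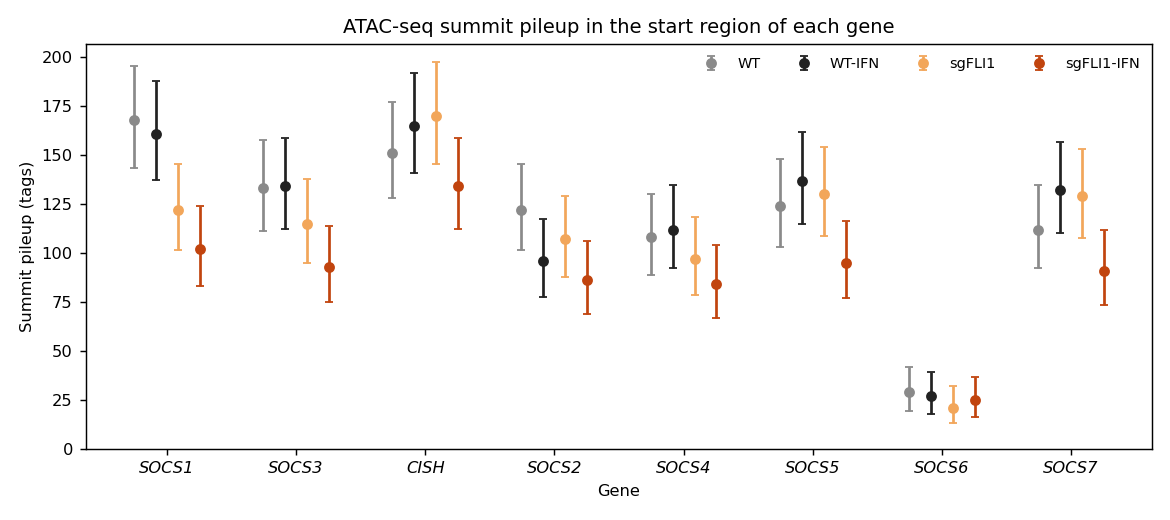
Summit pileup in tags (y axis) of the start region of each gene (x axis) in the 4 libraries. Points are single libraries and bars the exact 95% Poisson interval. For SOCS6 in sgFLI1 the nearest peak within 3 kb, 905 bp downstream of the start, is shown. SOCS6 lies at 21 to 29 tags and the other genes between 84 and 170 tags.

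SOCS1, the brake on interferon-γ signalling, lies on the minus strand at chr16:11254417-11256204, inside an intron of RMI2. Its start region stood at 168 tags in WT, 161 in WT-IFN, 122 in sgFLI1 and 102 in sgFLI1-IFN. The start region was about as high without interferon-γ as with it in WT, and it was lower in both knockout libraries. Ratios between libraries were centred on the median of all regions that overlap singly in both lists. This takes out depth, and with it any change common to those regions. The centred log2 ratio of WT-IFN to WT was −0.13 (interval −0.45 to 0.19) and that of sgFLI1-IFN to sgFLI1 was −0.11 (−0.50 to 0.28). The centred ratio of sgFLI1 to WT was −0.30 (−0.64 to 0.05) and that of sgFLI1-IFN to WT-IFN −0.27 (−0.64 to 0.09). The medians of all shared regions on chromosome 16 were −0.28 and −0.27 in these pairs, so the lower SOCS1 values in the knockout matched those of the whole chromosome.

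The lists also differed around the SOCS1 start region. In WT-IFN a second peak was listed 2.7 kb upstream (chr16:11258816-11259362, intron of RMI2), with 68 tags over a local background of 33.0 and a −log10 q of 5.42. It was in none of the other 3 lists. Had the region kept this height at the depth of the other libraries, it would have reached 68.1 tags in WT, 55.5 in sgFLI1 and 54.1 in sgFLI1-IFN, where 53, 45 and 44 tags would have sufficed at the scaled background. These numbers rest on the WT-IFN background scaled by depth, to 33.0 tags in WT, 26.9 in sgFLI1 and 26.2 in sgFLI1-IFN. By them, the interval of the 68 tags, 52.8 to 86.2, reaches down to the number needed in WT. Scaled to the depth of sgFLI1 and sgFLI1-IFN, its lower end also falls below the numbers needed there. The scaled heights do not take in the lower chromosome 16 medians of the knockout. The local background that MACS took from the tags around the SOCS1 start also differed, at 25.3 tags in WT, 33.7 in WT-IFN, 15.8 in sgFLI1 and 15.5 in sgFLI1-IFN. On the centred log2 scale this background was 0.41 higher in WT-IFN than in WT, at percentile 93.9 of all shared regions, and −0.78 in sgFLI1-IFN against WT-IFN, at percentile 3.35. Without interferon-γ it was already −0.38 in sgFLI1 against WT, at percentile 12.6. In WT, sgFLI1 and sgFLI1-IFN the background at the start was below the scaled one. At a lower background fewer tags would have sufficed than given above. The background of these libraries at the 2.7 kb region itself is unknown.

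Over the gene and 50 kb on both sides there were 5 peaks in the WT list, 9 in WT-IFN, 3 in sgFLI1 and 3 in sgFLI1-IFN. WT held 1 peak there that was absent from WT-IFN. WT-IFN held 5 peaks there that were absent from WT, and sgFLI1-IFN held 0 that were absent from sgFLI1. Besides the 68-tag peak they had 12 tags at 31.9 kb downstream, 50 tags at 15.3 kb downstream, 30 tags at 5.9 kb downstream and 20 tags at 20.8 kb upstream. The highest of these 4, with 50 tags, had a −log10 q of 25.9. Of all protein-coding genes, 3.60% had 5 or more such peaks in WT-IFN within this distance, and 0.496% had 5 or more in WT-IFN together with 0 in sgFLI1-IFN. SOCS1 was the only gene of the family with this combination. These surroundings were examined after the SOCS1 values had been seen, and the limits of 5 and 0 are the counts of SOCS1 itself. The shares therefore give no test of SOCS1.

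**Figure D2:**
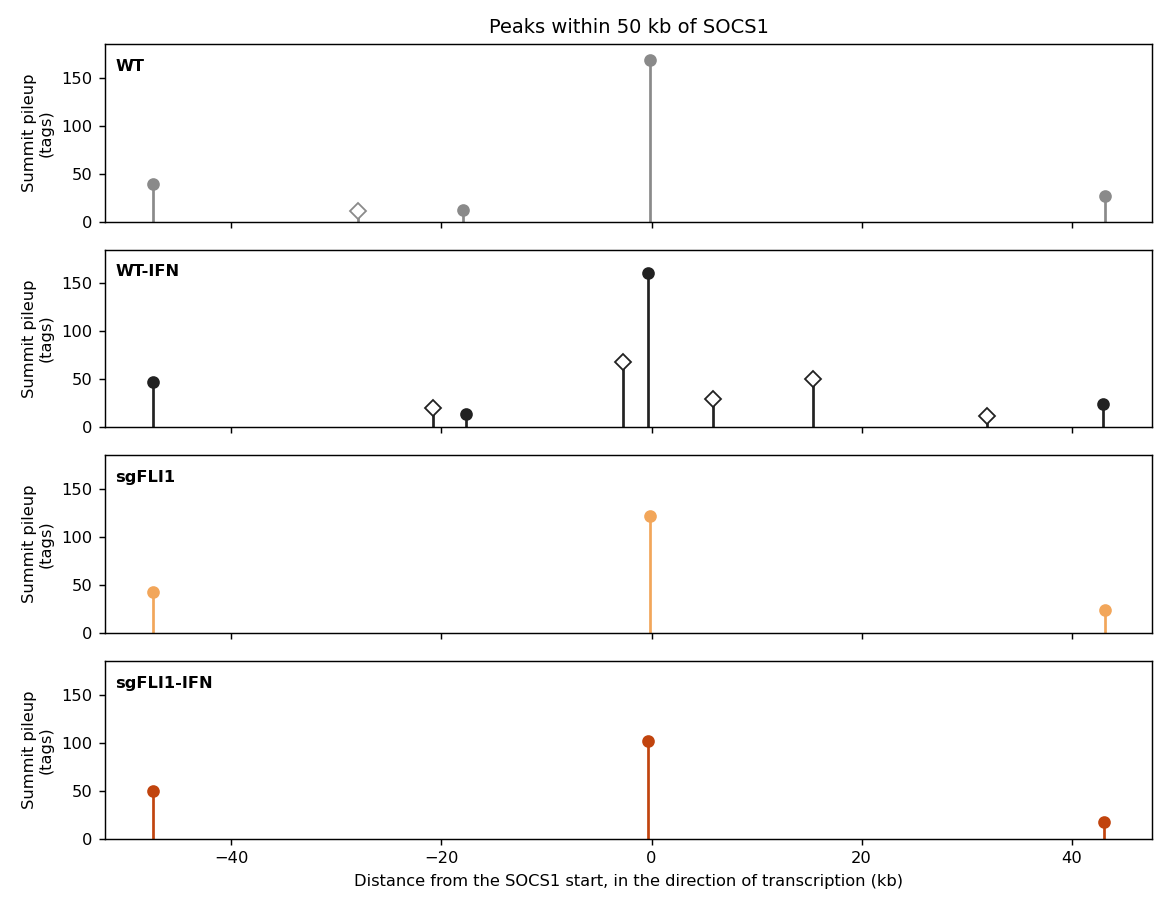
Summit pileup in tags (y axis) of every peak against its distance from the SOCS1 start in kb (x axis, positive in the direction of transcription), by library. Filled circles are peaks that overlap a peak of another list and open diamonds peaks found in that list alone. WT-IFN shows 9 peaks, 5 of them in that list alone, and both sgFLI1 libraries show 3.

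The sequence was read for 4 elements on both strands: the gamma-activated sequence bound by STAT dimers (GAS, TTCNNNGAA), the paired element of interferon regulatory factors (IRF, GAAA, any 2 bases and GAAA again), the ETS element (CCGGAAGT) and the AP-1 element (TGANTCA). GAS reads alike on both strands, and matches may overlap. A match describes the letters and does not show a bound factor. In the 250 bases upstream of the SOCS1 start there was 1 IRF match and no match to the other 3 elements, where 2.84% of protein-coding genes had an IRF match. Within 100 bp of the summit, the WT-IFN peak 2.7 kb upstream held 3 IRF matches, 2 of them overlapping, which 0.0978% of all WT-IFN peaks and 0.0117% of all WT peaks reached. The limit of 3 is the count of this peak itself, so these shares give no test of it. The matches are shown because this peak is the SOCS1 region that only WT-IFN listed, at chr16:11258821-11259021. The upstream bases at chr16:11256205-11256454 come first. Both sequences are read on the minus strand of GRCh38 with IRF matches in capitals.
SOCS1 upstream: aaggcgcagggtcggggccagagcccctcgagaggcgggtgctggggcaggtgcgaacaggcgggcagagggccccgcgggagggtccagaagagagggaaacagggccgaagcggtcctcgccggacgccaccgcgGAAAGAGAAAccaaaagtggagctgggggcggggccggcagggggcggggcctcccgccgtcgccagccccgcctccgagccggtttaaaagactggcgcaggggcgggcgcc
SOCS1 distal: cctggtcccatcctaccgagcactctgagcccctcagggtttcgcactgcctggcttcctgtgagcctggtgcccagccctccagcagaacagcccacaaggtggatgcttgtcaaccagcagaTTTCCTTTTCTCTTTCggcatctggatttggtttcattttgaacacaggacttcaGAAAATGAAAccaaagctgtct

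SOCS3, which blocks signalling from gp130 receptors such as that of interleukin-6, lies on the minus strand at chr17:78356778-78360077. Its start region stood at 133 tags in WT, 134 in WT-IFN, 115 in sgFLI1 and 93 in sgFLI1-IFN. At SOCS3 the centred log2 ratio was −0.05 (−0.41 to 0.30) for WT-IFN to WT and −0.15 (−0.56 to 0.25) for sgFLI1-IFN to sgFLI1, and both intervals hold 0. The summit lay −796 bp from the start in WT and −797 bp in sgFLI1, over an exon of the divergent SOCS3-DT, and −639 and −599 bp in the treated libraries. A low peak of 10 tags 6.4 kb upstream was in WT-IFN alone, and another of 13 tags 5.8 kb upstream in sgFLI1-IFN alone, both near the limit of detection, since 9 tags would have sufficed for the first in WT and 13 for the second in sgFLI1.

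CISH, the first SOCS-family gene described and a brake on STAT5 signalling from cytokine receptors, lies on the minus strand at chr3:50606489-50611774. Its start region stood at 151 tags in WT, 165 in WT-IFN, 170 in sgFLI1 and 134 in sgFLI1-IFN. The region is shared with a divergent start of MAPKAPK3. Its summit in WT lay 188 bp upstream of the CISH start and 54 bp downstream of the MAPKAPK3 start. CISH had the highest start pileup of the family in WT-IFN, sgFLI1 and sgFLI1-IFN, with SOCS1 the highest in WT. The centred log2 ratio of sgFLI1 to WT was 0.34 (0.01 to 0.66), with a chromosome 3 median of 0.06, and that of sgFLI1-IFN to WT-IFN was 0.09 (−0.25 to 0.42). Between treated and control cells it was 0.06 (−0.26 to 0.39) in WT and −0.19 (−0.53 to 0.14) in the knockout. A second region 5.1 kb upstream, next to another start of MAPKAPK3, stood at 134, 132, 102 and 94 tags in the order WT, WT-IFN, sgFLI1 and sgFLI1-IFN.

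SOCS2, a brake on growth hormone signalling, lies on the plus strand at chr12:93569814-93583487. The region 1.9 kb upstream of its canonical start stood at 122 tags in WT, 96 in WT-IFN, 107 in sgFLI1 and 86 in sgFLI1-IFN, lower in both treated libraries. The centred log2 ratio of WT-IFN to WT was −0.41 (−0.81 to −0.01), and that of sgFLI1-IFN to sgFLI1 was −0.16 (−0.59 to 0.26). Of the 14 member regions shared by WT-IFN and WT, this was the only one whose interval left out 0, against 7.07% of all shared regions. A further region 8.7 kb upstream, in an intron of SOCS2-AS1, was listed at 15 tags in sgFLI1 and 12 in sgFLI1-IFN and not in the WT or WT-IFN lists, where 8 tags would have sufficed.

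CISH and SOCS2, which form a subgroup of the family by sequence, also shared a sequence feature of their start regions. CISH held 4 GAS matches in the 250 bases upstream, at −241, −230, −129 and −112 bp, which 3 of 19962 protein-coding genes reached (0.0150%). The first pair of them and a pair in the SOCS2 region each begin 11 bases apart with 2 bases, ag, between them. GAS matches 11 bases apart lay within 100 bp of the summit in 6 of 59629 WT peaks, 5 of 67470 WT-IFN peaks, 2 of 63203 sgFLI1 peaks and 4 of 59923 sgFLI1-IFN peaks. CISH was among them in all 4 lists, and SOCS2 in WT, WT-IFN and sgFLI1-IFN. The spacing was noticed in these sequences and then counted, and the limit of 4 matches is the count of CISH itself. These counts therefore give no test of either gene. The bases are from chr3:50611991-50612020 and chr3:50611775-50611907 (minus strand) for CISH and chr12:93570793-93570979 (plus strand) for SOCS2, with GAS in capitals.
CISH distal pair: ccgttTTCCTGGAAagTTCTTGGAAatctg
CISH upstream: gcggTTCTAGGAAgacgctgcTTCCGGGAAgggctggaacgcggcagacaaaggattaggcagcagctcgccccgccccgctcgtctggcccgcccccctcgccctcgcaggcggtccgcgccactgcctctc
SOCS2 region: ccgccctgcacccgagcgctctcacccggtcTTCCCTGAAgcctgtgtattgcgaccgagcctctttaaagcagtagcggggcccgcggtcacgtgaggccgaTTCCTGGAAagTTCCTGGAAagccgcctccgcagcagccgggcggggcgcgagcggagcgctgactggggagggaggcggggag

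SOCS4, which belongs with SOCS5 to the subgroup linked to epidermal growth factor receptor turnover, lies on the plus strand at chr14:55027230-55049489. Its start region, shared with the divergent start of WDHD1, stood at 108 tags in WT, 112 in WT-IFN, 97 in sgFLI1 and 84 in sgFLI1-IFN. SOCS4 varied least of the family. Its 4 centred log2 ratios ran from −0.06 to 0.01, and within 50 kb of the gene the lists held the same 5 regions, with 0 peaks in any list that lacked a counterpart in another.

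SOCS5 lies on the plus strand at chr2:46698952-46780245. Its start region stood at 124 tags in WT, 137 in WT-IFN, 130 in sgFLI1 and 95 in sgFLI1-IFN. Between treated and control cells the centred log2 ratio was 0.08 (−0.28 to 0.44) in WT and −0.30 (−0.70 to 0.09) in the knockout, and both intervals hold 0. A region 8.2 kb upstream stood at 20, 31, 18 and 24 tags in the order WT, WT-IFN, sgFLI1 and sgFLI1-IFN. It was higher in the treated library of each genotype, by 0.57 (−0.29 to 1.46) in WT and 0.57 (−0.38 to 1.53) in the knockout, and both intervals hold 0.

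Inside SOCS5, 54.5 kb downstream of the start and in an intron (chr2:46753543-46754107), a peak was listed under interferon-γ only. It had 38 tags (26.9 to 52.2) over a background of 3.45 in WT-IFN, with a −log10 q of 24.1, and 9 tags (4.12 to 17.1) in sgFLI1-IFN. It was not in the WT list, where 11 tags would have sufficed, nor in the sgFLI1 list, where 9 would have. The centred log2 ratio of sgFLI1-IFN to WT-IFN was −1.69 (−2.93 to −0.62), at percentile 0.437 of all shared regions, with a chromosome 2 median of 0.03. Among the member regions listed in both libraries of a pair, this was the only one to differ by more than 2-fold in either direction. Regions missing from a list have no ratio. Of all shared regions, 6.30% did so in this pair, 2.84% in WT-IFN against WT, 0.685% in sgFLI1-IFN against sgFLI1 and 5.84% in sgFLI1 against WT. A further intronic region, 77.6 kb downstream of the start, was listed at 15 tags in WT and 16 in WT-IFN and in neither knockout list, where 7 tags would have sufficed.

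SOCS6 and SOCS7, with long N termini, bind insulin receptor signalling proteins among others. SOCS6 lies on the plus strand at chr18:70289045-70330199 and had the lowest start region of the family, at 29 tags in WT, 27 in WT-IFN and 25 in sgFLI1-IFN, with no peak over the start in sgFLI1. In sgFLI1 a peak of 21 tags lay 905 bp downstream of the start, where WT-IFN had 24 tags at 772 bp, and WT-IFN had a further 21 tags 1.9 kb downstream. The start would have been listed from 16 tags in sgFLI1. In WT the regions downstream would have needed 20 and 19 tags, close to their heights in WT-IFN. A region 2.5 kb upstream stood at 27 tags in WT, 33 in WT-IFN, 35 in sgFLI1 and 39 in sgFLI1-IFN, and was thus highest in the knockout. Its centred log2 ratio was 0.54 (−0.23 to 1.32) for sgFLI1 to WT and 0.63 (−0.08 to 1.34) for sgFLI1-IFN to WT-IFN, on a chromosome whose medians were −0.29 and −0.34.

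The SOCS6 region 8.6 kb upstream was listed at 14 tags in WT, 27 in WT-IFN and 15 in sgFLI1-IFN and was not listed in sgFLI1, where 9 tags would have sufficed. The centred log2 ratio of WT-IFN to WT was 0.88 (−0.10 to 1.93), at percentile 96.9 of shared regions. That of sgFLI1-IFN to WT-IFN was −0.46 (−1.48 to 0.50), with a chromosome 18 median of −0.34. The summit also differed, at −8714 bp from the start in WT, −8554 bp in WT-IFN and −8207 bp in sgFLI1-IFN.

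The SOCS5 intronic peak turned out to lie over a sequence found under many other peaks. Around its WT-IFN summit were 2 GAS matches that begin 21 bases apart. Of all peaks, 2 or more GAS matches within 100 bp of the summit were found in 0.205% in WT, 0.458% in WT-IFN, 0.190% in sgFLI1 and 0.247% in sgFLI1-IFN. The window is shown because of these copies, on the plus strand from chr2:46753725-46753925, with GAS in capitals.
SOCS5 intron: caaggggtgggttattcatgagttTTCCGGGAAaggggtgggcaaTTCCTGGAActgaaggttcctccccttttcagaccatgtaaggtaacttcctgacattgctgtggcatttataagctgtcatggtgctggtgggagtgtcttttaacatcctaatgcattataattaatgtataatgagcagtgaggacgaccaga

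The SOCS5 window was then searched with BLAST against the sequence within 100 bp of every summit, counting alignments of at least 100 bases with an E-value of at most 1e-10. Such copies lay under 3 peaks in WT, 117 in WT-IFN, 13 in sgFLI1 and 24 in sgFLI1-IFN. Of the 117 in WT-IFN, 105 had no peak in WT (89.7%, exact binomial interval 82.8 to 94.6%), where 25.2% of all WT-IFN peaks had none. Of the same 117, 87 had no peak in sgFLI1-IFN (74.4%, 65.5 to 82.0%), where 29.0% of all WT-IFN peaks had none. In the knockout, 12 of the 24 copies in sgFLI1-IFN had no peak in sgFLI1 (50%, 29.1 to 70.9%), where 18.0% of all sgFLI1-IFN peaks had none. The median pileup of the copies was 25 tags in WT-IFN and 14 in sgFLI1-IFN. Among those with at least 20 tags in WT-IFN, 49 of 78 had no peak in sgFLI1-IFN (62.8%), against 13.2% of all WT-IFN peaks of that height. This search was chosen after the SOCS5 peak had been seen and counts the SOCS5 peak itself.

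**Figure D3:**
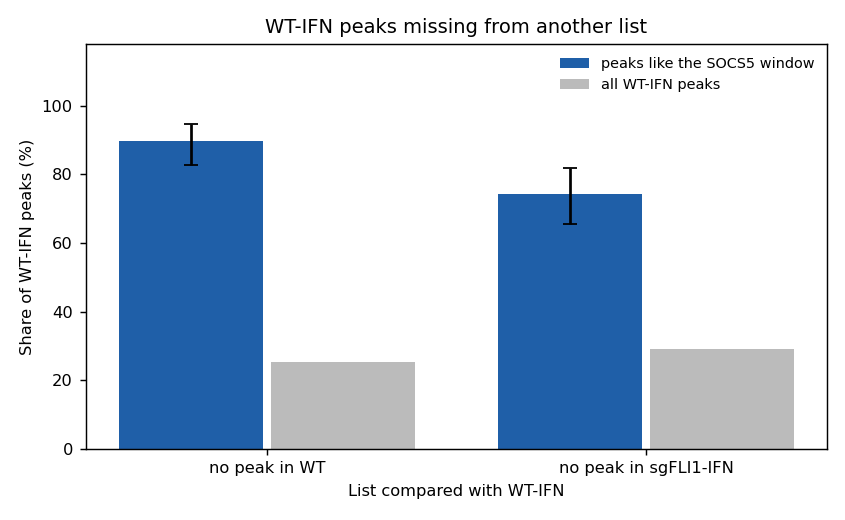
Share in % (y axis) of WT-IFN peaks with no overlapping peak in the list named on the x axis. Blue bars are the 117 peaks whose summit window resembles the SOCS5 intronic window, with exact 95% binomial intervals, and grey bars all 67470 WT-IFN peaks. The blue bars stand at 89.7% and 74.4%, and the grey bars at 25.2% and 29.0%.

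SOCS7 lies on the plus strand at chr17:38351844-38405593. Its start region stood at 112 tags in WT, 132 in WT-IFN, 129 in sgFLI1 and 91 in sgFLI1-IFN. For SOCS7 the centred log2 ratio was 0.17 (−0.20 to 0.55) for WT-IFN to WT, −0.35 (−0.75 to 0.05) for sgFLI1-IFN to sgFLI1 and 0.37 (−0.01 to 0.75) for sgFLI1 to WT, and all 3 intervals hold 0. SOCS7 was the only gene of the family with an ETS match in the 250 bases upstream, the class of element that FLI1 binds, and 5.10% of protein-coding genes had one there. The second WT-IFN peak of SOCS7, 10.3 kb upstream in an intron of GPR179, reached 124 bp into the window. Peaks of 17, 23 and 17 tags overlapped it in WT, sgFLI1 and sgFLI1-IFN but ended short of the window, so it is no gain.

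**Figure D4:**
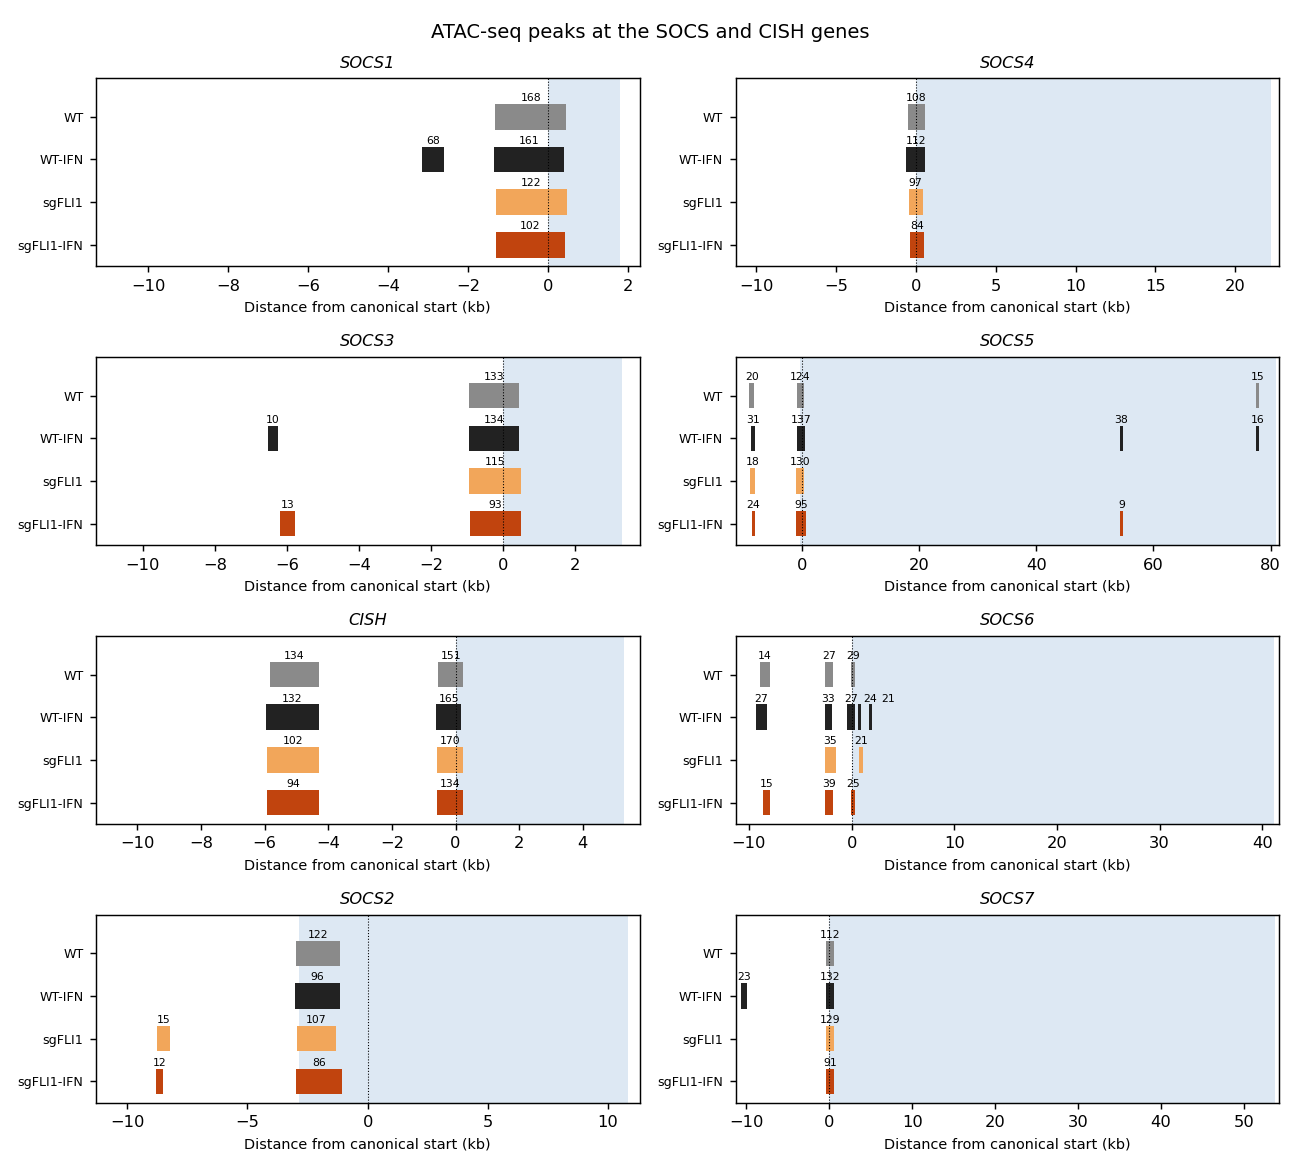
Peaks (bars) at the 8 genes by distance from the canonical start in kb (x axis, positive in the direction of transcription) in the 4 lists (y axis). Numbers give the summit pileup in tags, and blue shading marks the gene body. The start regions recur in every list except that of SOCS6, which is missing from sgFLI1, and the other peaks missing from at least 1 list lie at SOCS1, SOCS3, SOCS2, SOCS5 and SOCS6. The SOCS7 bar 10.3 kb upstream is drawn for WT-IFN only, since the peaks that overlap it in the other lists end short of the window.

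Over the family, peak turnover with interferon-γ rested on few peaks. Of the 19 member peaks in WT-IFN, 5 had no counterpart in WT (26.3%, 9.15 to 51.2%, against 25.2% of all peaks), at SOCS1, SOCS3, SOCS5 and SOCS6. Of the 13 in WT, 0 had no counterpart in WT-IFN (upper limit 24.7%, against 15.9%). Of the 15 in sgFLI1-IFN, 4 had none in sgFLI1 (26.7%, against 18.0%), at SOCS3, SOCS5 and SOCS6, and 1 of the 12 in sgFLI1 had none in sgFLI1-IFN (8.33%, against 22.2%). By gene, 4 of the 8 had at least 1 peak gained in WT-IFN, against 32.0% of protein-coding genes, and 3 of the 8 had at least 1 gained in sgFLI1-IFN, against 22.9%. These shares of the members cannot be told from those of all peaks at such counts.

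Between genotypes, 2 of the 12 member peaks in sgFLI1 had no counterpart in WT (16.7%, against 25.3% of all peaks), and 3 of the 13 in WT had none in sgFLI1 (23.1%, against 21.4%). Under interferon-γ, 2 of the 15 in sgFLI1-IFN had none in WT-IFN (13.3%, against 19.8%), and 5 of the 19 in WT-IFN had none in sgFLI1-IFN (26.3%, against 29.0%). The 5 were at SOCS1, SOCS3, SOCS5 and SOCS6. The SOCS5 peak among them is the one 77.6 kb downstream, since the one 54.5 kb downstream was in both treated lists.

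In the shared regions the members went both ways. Of the 14 shared by WT-IFN and WT, 8 had a centred log2 ratio above 0 and 6 below, from −0.41 to 0.88. The log2 ratio of their summed pileups, to which the tall start regions contribute most, was −0.00 (−0.12 to 0.11). It was −0.13 (−0.26 to −0.00) over the 11 regions of sgFLI1-IFN and sgFLI1, 0.07 (−0.06 to 0.19) over the 10 of sgFLI1 and WT, and −0.07 (−0.20 to 0.05) over the 14 of sgFLI1-IFN and WT-IFN. In the knockout all 7 shared start regions had a ratio below 0 under interferon-γ, from −0.35 at SOCS7 to −0.06 at SOCS4. Of the start regions of all protein-coding genes, 55.3% were below 0 in that pair. In 0 of the 11 regions did the interval leave out 0 (2.09% of all regions), and in the pairs between genotypes 1 region each did, CISH without treatment (14.8%) and the SOCS5 intron under interferon-γ (14.0%).

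**Figure D5:**
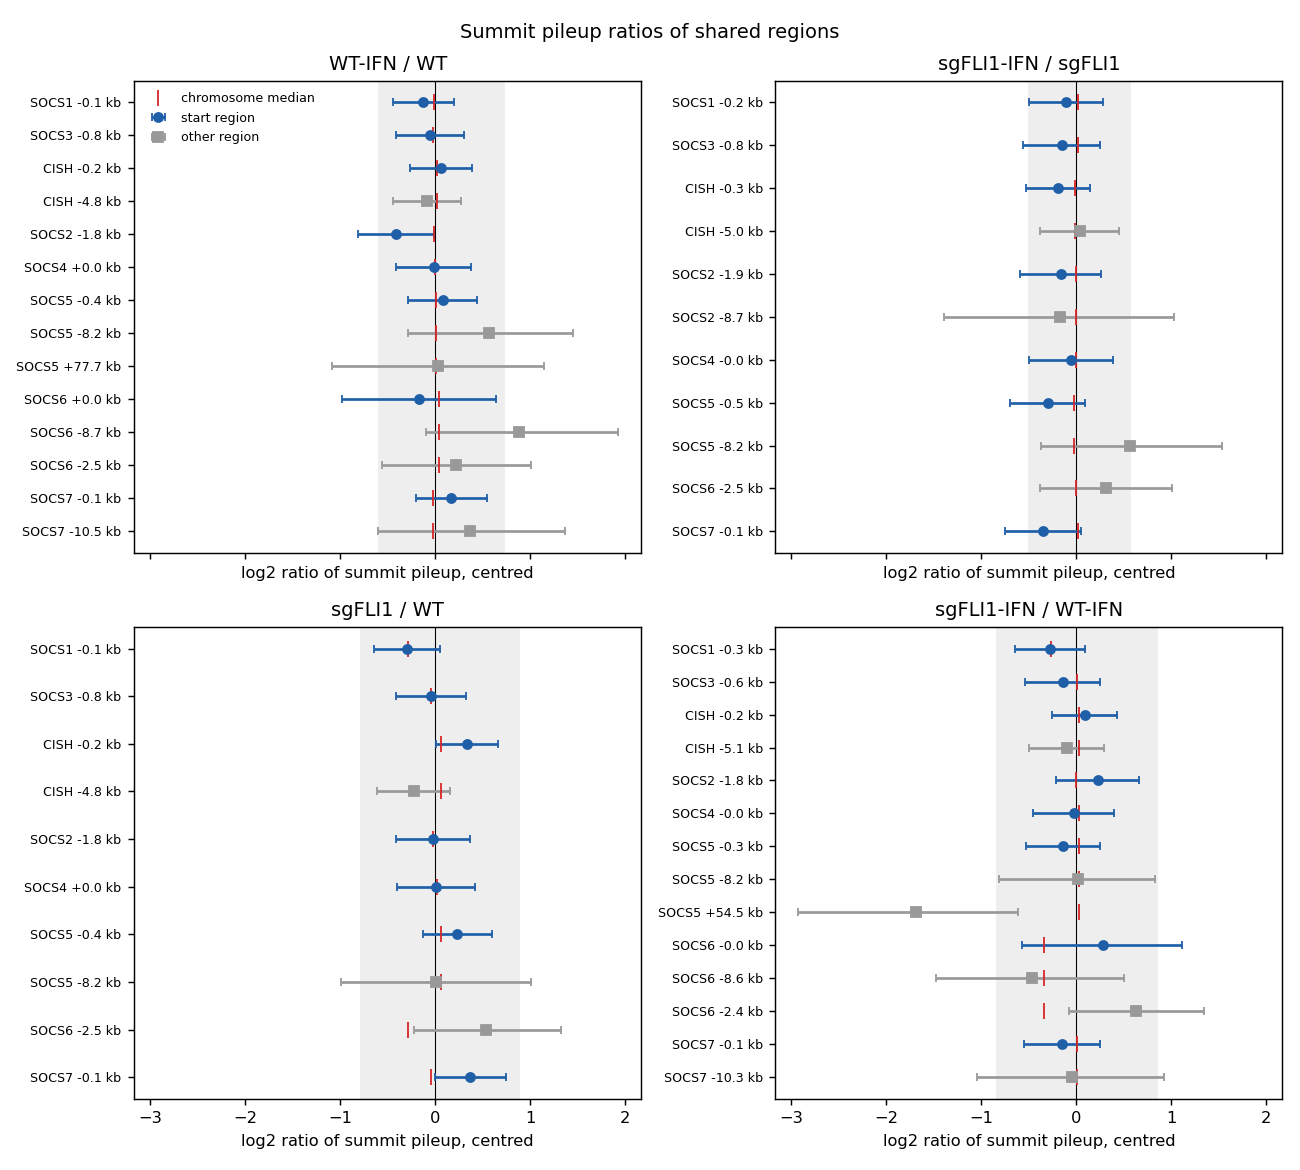
Centred log2 ratio of summit pileup (x axis) for each shared member region (y axis, with the distance of its summit from the start) in 4 pairs of libraries. Blue circles are start regions, grey squares other regions, bars exact 95% counting intervals, red ticks the median of the region's chromosome, and the grey band holds the middle 90% of all shared regions. The SOCS5 region at +54.5 kb stands at −1.69 in the last panel and the far upstream SOCS6 region at 0.88 in the first, both outside the band.

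Of 19 cytokine receptor and JAK genes, 13 had a peak over the canonical start in WT, WT-IFN and sgFLI1 and 12 in sgFLI1-IFN, where the start of IL4R was not listed. Of all protein-coding genes, 56.2, 56.8, 55.5 and 55.0% had such a peak in WT, WT-IFN, sgFLI1 and sgFLI1-IFN. The counts were the same in all 4 lists for 10 growth factor receptors and substrates (8), 7 STAT factors (5), 10 partners of the SOCS box ligase (10) and 12 other inhibitors of the pathway (10). Peaks gained in WT-IFN against WT were found at 10 of the 19 receptor and JAK genes, 6 of the 10 growth factor genes, 6 of the 7 STAT genes, 2 of the 10 ligase partners and 4 of the 12 other inhibitors, against 32.0% of protein-coding genes. In sgFLI1-IFN against sgFLI1 the counts were 8, 4, 3, 2 and 1, against 22.9%. In the same order, genes with a peak lost under interferon-γ came to 6, 4, 3, 2 and 2 in WT (21.5% of protein-coding genes) and 10, 7, 3, 1 and 5 in the knockout (28.0%). The median number of peaks per gene in WT-IFN was 3, 6.5, 4, 2 and 3.5 in that order, against 2 over all protein-coding genes. A gene with more peaks has more that can be gained or lost, so the shares are not like for like. No count of these lists was tested against that of all genes.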

How the data were processed

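ATAC-seq was run on HK1 cells in 4 groups of 1 library each. As the study's methods state, the authors trimmed reads (Trimmomatic), aligned them to GRCh38 (Bowtie2 2.3.4.1), discarded duplicates and alignments of low mapping quality, and called peaks (MACS2 2.1.2). They also kept only peaks reproducible by an IDR analysis. Whether the deposited lists predate that step, and hold 1 replicate or several pooled, is not stated. The deposited lists give a score, a fold (ratio), −log10 p and −log10 q per peak. These served to rank and filter peaks, and the deposited fold and −log10 p gave the summit pileup as a whole number for 100% of peaks (−log10 p met within 0.001). Pileups carry exact Poisson intervals and ratios exact binomial ones. Peaks were shared when overlapping by 1 bp. Genes came from GENCODE release 44. The steps were tested on simulated data. The sequences of 2 regions are not reported here. The genes and lists were chosen with earlier results of these data known. All 8 genes were named, further regions when missing from a list at −log10 q of 10 or more or differing over 2-fold, and other regions after their values were seen. Python 3.11.15, scipy 1.17.1 and BLAST 2.17.0 were used. Alternatives were stricter q limits, other windows, overlaps and scalings, one of which scaled pileups down to the shallowest background.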

Additional observations from a re-analysis of the deposited data

Results flagged for a closer look

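At 4 regions the centred log2 ratio of treated to control cells had opposite signs in the WT and the knockout pair, with 1 library a group. The CISH start region stood at 0.062 in WT and −0.19 in the knockout, the SOCS5 start region at 0.078 and −0.30, the SOCS7 start region at 0.17 and −0.35, and the second CISH region at −0.087 and 0.034. By tag density, without centring, the CISH regions had the same sign in both pairs, at −0.0079 and −0.33 for the start and −0.16 and −0.10 for the second region. All 8 intervals hold 0, and the difference between the pairs was not tested.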

How the results depend on the processing

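No paired analysis was possible because each group has 1 library. Of 76 recomputed summary values 59 stayed within their error or within 1.5 times, as did all 147 values of single regions. The pooled log2 ratio of WT-IFN to WT changed sign within its interval, from −0.0031 to 0.065 by library background and 0.0067 with summits within 100 bp. Within 50 kb on both sides the lists held 55 (WT), 67 (WT-IFN), 51 (sgFLI1) and 57 (sgFLI1-IFN) peaks at the 8 genes. At −log10 q of at least 10, WT-IFN held 12. With −log10 q of at least 5, peaks without a counterpart numbered 2 in WT-IFN against WT, 2 in sgFLI1-IFN against sgFLI1, 0 in sgFLI1 against sgFLI1-IFN, 1 in sgFLI1 against WT, 1 in sgFLI1-IFN against WT-IFN and 2 in WT-IFN against sgFLI1-IFN. With 3 kb upstream they numbered 2 in sgFLI1-IFN against sgFLI1, 1 in sgFLI1 against WT and 0 in sgFLI1-IFN against WT-IFN, and with an overlap of 50% of the peak 2 in sgFLI1 against sgFLI1-IFN. The pooled log2 ratio was −0.27 for sgFLI1-IFN to sgFLI1 by tag density and 0.20 for sgFLI1 to WT by library background, where the median of all shared regions moved to −0.14 and 0.13. In settings added after the data were seen, the share of SOCS5-like WT-IFN peaks missing from sgFLI1-IFN was 62.8% with at least 20 tags. The cause of these moves was not tested. Depth limits the low peaks, as the lowest listed had 8 tags in the WT libraries and 7 in the sgFLI1 libraries.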
